A study of Mus musculus with 9 samples.

Results

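The neuromuscular junction genes are a set of 10 genes that encode the muscle acetylcholine receptor and the proteins that gather it under the nerve terminal. They were taken by name: the receptor subunits Chrna1, Chrnb1, Chrnd, Chrne and Chrng, the organisers Musk, Rapsn, Dok7 and Agrn, and the adhesion molecule Ncam1. All 10 were measured, by 20 probe sets of 45037 on the array and among 18193 genes with a probe set of their own. The tissue was gastrocnemius (calf) muscle from CD-1 mice, young adults taken 14 days after surgery. Testosterone mice were castrated and given a 2.5 mg testosterone pellet with 60-day release, castration mice were castrated and given a placebo pellet, and sham mice, sham operated, also carried placebo. There were 3 arrays for each group, and 3 animals gave RNA to each array, so an SD here is the spread between pools and 3 arrays per group limit the precision. All groups were of the same stock and all animals were operated on and carried a pellet.

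The muscle acetylcholine receptor is a pentamer of alpha, beta and delta subunits with either gamma, the fetal subunit, or epsilon, which replaces gamma in adult muscle. Agrin from the nerve binds Lrp4 and activates the kinase MuSK with the help of Dok7, and rapsyn then anchors the receptors in dense clusters. When a muscle loses its nerve supply, genes for the alpha, gamma and delta subunits, MuSK and Ncam1 become active along the whole fibre, driven in part by the transcription factor myogenin. The question put to these data was whether castration gives a pattern of that kind.

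The arrays carried the profile of fast skeletal muscle: the mean log2 level of 8 fibre markers lay between 13.91 and 13.96 on all arrays. Smox, an androgen-responsive gene, was at 10.15 to 10.55 on the testosterone arrays, 7.48 to 8.09 on the castration arrays and 9.65 to 10.63 on the sham arrays, so the castration arrays lay apart from both other groups. Fkbp5, likewise androgen-responsive, differed by 1.46 in testosterone against castration and by −1.15 in castration against sham (limma, adjusted p = 0.110 and adjusted p = 0.343). Sham 2 and testosterone 2 stood apart, with mean correlations with the remaining arrays of 0.972 and 0.981, against 0.989 to 0.991 for the others. Sham 2 was also more often lowest than highest on bright probe sets, and more often highest than lowest on dim ones. It gave the lowest value of the 9 arrays in 4 of the 5 neuromuscular junction genes with a mean above log2 5, and the highest value in 9 of the 15 member probe sets at or below that mean. Over all probe sets those shares were 57.2% and 28.0%. Sham 2 was also the highest array in 3.33% of all probe sets above that mean. It was the lowest in 18.8% of those at or below it. The cause was not tested. For a part of the results, values without both of these arrays are also given.

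The members' probe sets differed in how far they stood above the array medians, which were 3.15 to 3.26. Chrna1, Chrnb1, Rapsn, Dok7 and Chrne had a probe set with a mean above log2 5. Agrn, Chrnd, Musk, Ncam1 and Chrng had none, and their best probe sets averaged 4.50, 4.28, 3.89, 3.71 and 3.48. For dim probe sets a log2 difference understates a change in RNA, so the small differences below of Chrng, Ncam1 and Musk are bounds on the array signal only. In all, 11 of the 20 member probe sets averaged below 3.5: all 3 of Chrng, 6 of the 7 of Ncam1, and the dimmer one each of Dok7 and Agrn. The brightest probe set stands for a gene below. Those of Dok7, Rapsn and Ncam1 carry a suffix that marks a match to more than 1 transcript.

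**Figure D1:**
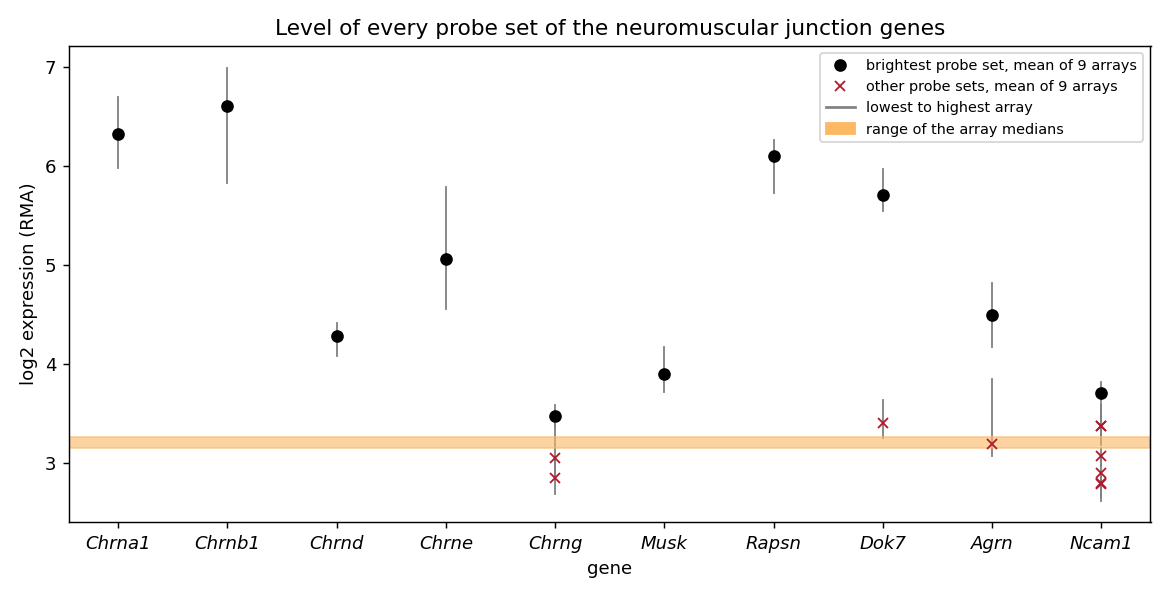
Level of every probe set of the 10 neuromuscular junction genes on the log2 scale, with black circles for the brightest probe set of a gene and red crosses for its others (means of 9 arrays), grey lines from the lowest to the highest array, and an orange band for the array medians. The 3 probe sets of Chrng and the 7 of Ncam1 lie near or within reach of the band, while Chrna1, Chrnb1, Rapsn and Dok7 lie well above it.

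Of the receptor subunits, Chrna1 encodes alpha, which carries the acetylcholine binding surface. Chrna1 was at 6.04, 6.29 and 6.35 on the testosterone arrays, at 6.70, 6.65 and 6.36 on the castration arrays, and at 6.36, 5.98 and 6.20 on the sham arrays. Castration 1 and 2 were the highest arrays, but castration 3 equalled sham 1 and lay less than 0.01 above testosterone 3. Chrna1 was 1.31-fold higher in castration than in sham muscle (log2 0.39, 95% interval 0.08 to 0.70, limma, adjusted p = 0.883). It was 1.27-fold lower in testosterone than in castration muscle (log2 −0.34, 95% interval −0.65 to −0.03, limma, adjusted p = 0.9999). Testosterone and sham muscle differed by log2 0.05, with an interval of −0.26 to 0.36. The comparisons share the castration arrays, so the opposite signs are not independent of each other. Without sham 2 and testosterone 2 the castration difference was 0.29, no longer below an unadjusted p of 0.05, and the testosterone difference was −0.37, still below it. The testosterone difference was not below it with a replicate block, without dim probe sets, with an intensity trend, in the one-way fit without moderation, or without testosterone 1, castration 1 or castration 2. The castration difference was 0.19 after renewed quantile normalisation, and was not below it there, with a trend, or without castration 1, castration 2 or sham 2. In whole muscle, a change in the share of a cell type and a change in RNA per cell cannot be told apart.

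Chrne encodes epsilon, the adult subunit, and Chrng encodes gamma, the fetal one. Chrne was at 5.20, 5.79 and 4.79 in testosterone muscle, 5.0, 5.39 and 5.30 in castration muscle and 4.72, 4.56 and 4.85 in sham muscle. All 3 castration arrays lay above all 3 sham arrays, by at least 0.15, while the testosterone arrays spread across both. Chrne was 1.44-fold higher in castration than in sham (log2 0.52, SE 0.23, limma, adjusted p = 0.883) and 1.46-fold higher in testosterone than in sham (log2 0.55, SE 0.23, limma, adjusted p = 0.797). The 95% interval of the castration difference reached 0. Without sham 2 and testosterone 2 those differences were 0.45 and 0.21. With only sham 2 left out, the testosterone difference was 0.48. Testosterone and castration muscle differed by 0.03, and by −0.24 without those arrays.

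Chrng was dim and had its highest values in sham. Its brightest probe set was at 3.35, 3.38 and 3.47 with testosterone, 3.45, 3.47 and 3.47 after castration and 3.55, 3.59 and 3.55 in sham, so sham lay above both castrated groups by 0.07. The castration minus sham difference was −0.10 (95% interval −0.23 to 0.04), and the dimmer probe sets differed by −0.20 and −0.11. A gain of more than 1.03-fold in the signal of the brightest probe set lay outside that interval. Against sham, testosterone muscle was 1.12-fold lower (log2 −0.16, limma, adjusted p = 0.797), and by log2 −0.14 without sham 2 and testosterone 2. The fetal subunit, which a denervated muscle makes again, had a lower mean after castration than in sham on all 3 of its probe sets, and none of these differences passed the test. Sham 2 was the highest array on all 3. Without sham 2 and testosterone 2 the castration differences were −0.08 on the brightest probe set and −0.09 and −0.07 on the dimmer ones.

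Windows from 250 bases before to 50 bases after the gene start are shown for alpha, gamma and epsilon, because these subunits differ most in how they are known to answer to myogenin and to the nerve. Capitals mark matches to the E-box CANNTG, the motif of myogenin and its relatives, and to the N-box CCGGAA, the motif of ETS factors known from synaptic promoters, with either strand searched. Sequences are those of RefSeq on GRCm38.p6, 5′ to 3′ on the strand of the gene.
Chrna1, chr2:73580289-73580588, minus strand: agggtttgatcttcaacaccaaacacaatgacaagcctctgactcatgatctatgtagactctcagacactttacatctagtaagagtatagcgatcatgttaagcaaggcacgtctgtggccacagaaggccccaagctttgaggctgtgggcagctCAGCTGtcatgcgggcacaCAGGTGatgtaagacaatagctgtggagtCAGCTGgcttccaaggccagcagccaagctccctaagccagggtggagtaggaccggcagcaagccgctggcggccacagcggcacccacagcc
Chrng, chr1:87205561-87205860, plus strand: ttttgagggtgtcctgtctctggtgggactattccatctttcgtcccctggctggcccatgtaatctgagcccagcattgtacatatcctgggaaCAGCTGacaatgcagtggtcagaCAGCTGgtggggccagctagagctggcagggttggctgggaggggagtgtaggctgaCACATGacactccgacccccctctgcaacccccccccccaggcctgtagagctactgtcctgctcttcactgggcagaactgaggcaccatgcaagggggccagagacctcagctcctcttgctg
Chrne, chr11:70619145-70619444, minus strand: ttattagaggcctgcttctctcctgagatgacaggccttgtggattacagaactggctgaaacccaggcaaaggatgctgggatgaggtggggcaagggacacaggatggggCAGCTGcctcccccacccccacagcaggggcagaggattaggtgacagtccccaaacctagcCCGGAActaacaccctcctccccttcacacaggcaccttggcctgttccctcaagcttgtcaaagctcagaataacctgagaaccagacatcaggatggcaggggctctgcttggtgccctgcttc
The Chrna1 window held 3 E-boxes and the Chrng window 3. The Chrne window held 1 E-box, which starts 138 bases upstream of the gene start, and 1 N-box, which starts 76 bases upstream. No E-box overlapped the N-box. Of the 10 genes, 7 had a window in the table, 9 windows in all, and 7 of these 9 held an E-box, where 72.3% of the 32851 windows of all genes did. An N-box was in 1 of the 9, against 14.9% of all windows. Both shares are near the background, and a match is a description, not a bound site.

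Chrnb1, the beta subunit, spread more than any shift between its groups. It was at 6.93, 6.24 and 6.71 with testosterone, 6.77, 7.0 and 6.51 after castration and 6.74, 5.83 and 6.71 in sham. Its difference between castration and sham of 0.33 (95% interval −0.29 to 0.95) came to 0.03 without sham 2 and testosterone 2. Chrnd encodes delta and lies next to Chrng on chromosome 1. Chrnd was at 4.26, 4.24 and 4.40 with testosterone, 4.31, 4.08 and 4.18 after castration and 4.31, 4.41 and 4.31 in sham. Its mean was lower after castration than in sham (log2 −0.15, 95% interval −0.34 to 0.03, limma, adjusted p = 0.883), which leaves a gain of more than 1.02-fold in signal outside the interval. Without sham 2 and testosterone 2 that difference of Chrnd was −0.12. Of the 5 subunits, alpha, beta and epsilon had higher means after castration than in sham and delta and gamma lower ones, none past the adjusted threshold.

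**Figure D2:**
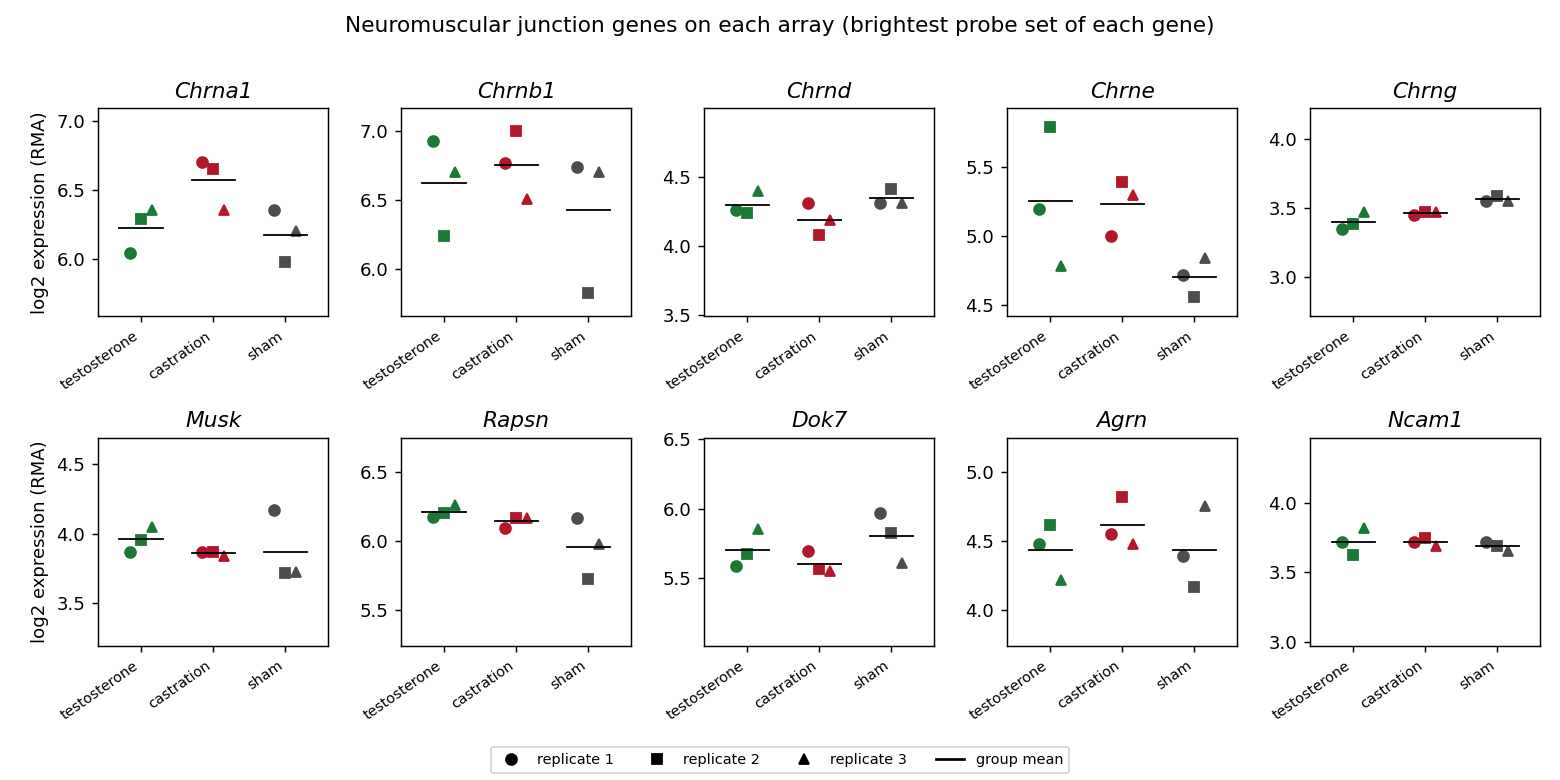
Log2 expression of the brightest probe set of each of the 10 genes on every array, by group (testosterone, castration, sham), with a symbol for each replicate and a bar for the group mean. Vertical axes have the same length in log2 units and start at different levels. Castration 1 and 2 are the highest arrays for Chrna1, all 3 castration arrays of Chrne lie above the sham arrays, and sham 2 is the lowest array for Chrnb1 and Rapsn.

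Musk encodes the receptor tyrosine kinase at the centre of receptor clustering. Musk was at 3.87, 3.95 and 4.05 with testosterone, 3.87, 3.87 and 3.84 after castration and 4.17, 3.71 and 3.72 in sham, where a single array lay high. Castration and sham differed by −0.01 (95% interval −0.29 to 0.27), and by −0.09 without sham 2 and testosterone 2. With all arrays the interval of the signal allowed a gain of up to 1.2-fold. Agrn encodes agrin, which comes from the motor nerve in its active form and from muscle in a form with little clustering activity. Agrn was at 4.48, 4.62 and 4.22 with testosterone, 4.55, 4.82 and 4.48 after castration and 4.39, 4.17 and 4.75 in sham, and all groups overlapped. Its castration minus sham difference was 0.18 on the brighter probe set and −0.27 on the dimmer one, where sham 2 alone stood at 3.84 and all other arrays at 3.07 to 3.16.

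Dok7 encodes the adaptor that activates MuSK from inside the fibre. It was at 5.59, 5.68 and 5.85 with testosterone, 5.69, 5.57 and 5.55 after castration and 5.97, 5.83 and 5.61 in sham. Castration was lower than sham by log2 −0.20 (95% interval −0.45 to 0.05), with overlapping arrays. Rapsn encodes rapsyn, the receptor anchor. It was at 6.17, 6.20 and 6.26 with testosterone, 6.09, 6.17 and 6.17 after castration and 6.17, 5.73 and 5.98 in sham. Testosterone arrays lay above the arrays of both other groups, by less than 0.01. Rapsn was 1.19-fold higher with testosterone than in sham (log2 0.25, limma, adjusted p = 0.797), and by 0.14 without sham 2 and testosterone 2. Its castration minus sham difference was 0.18 (95% interval −0.06 to 0.42), and 0.07 without those arrays.

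Ncam1 encodes an adhesion molecule that is confined to the junction and to satellite cells in innervated muscle and spreads over the fibre after denervation. Its brightest probe set was at 3.72, 3.62 and 3.82 with testosterone, 3.72, 3.75 and 3.69 after castration and 3.72, 3.69 and 3.66 in sham. Castration and sham differed by 0.03 (95% interval −0.13 to 0.19), an upper bound of 1.14-fold in signal. The other 6 probe sets differed between castration and sham by −0.07 to 0.13 and none was below an unadjusted p of 0.05.

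**Figure D3:**
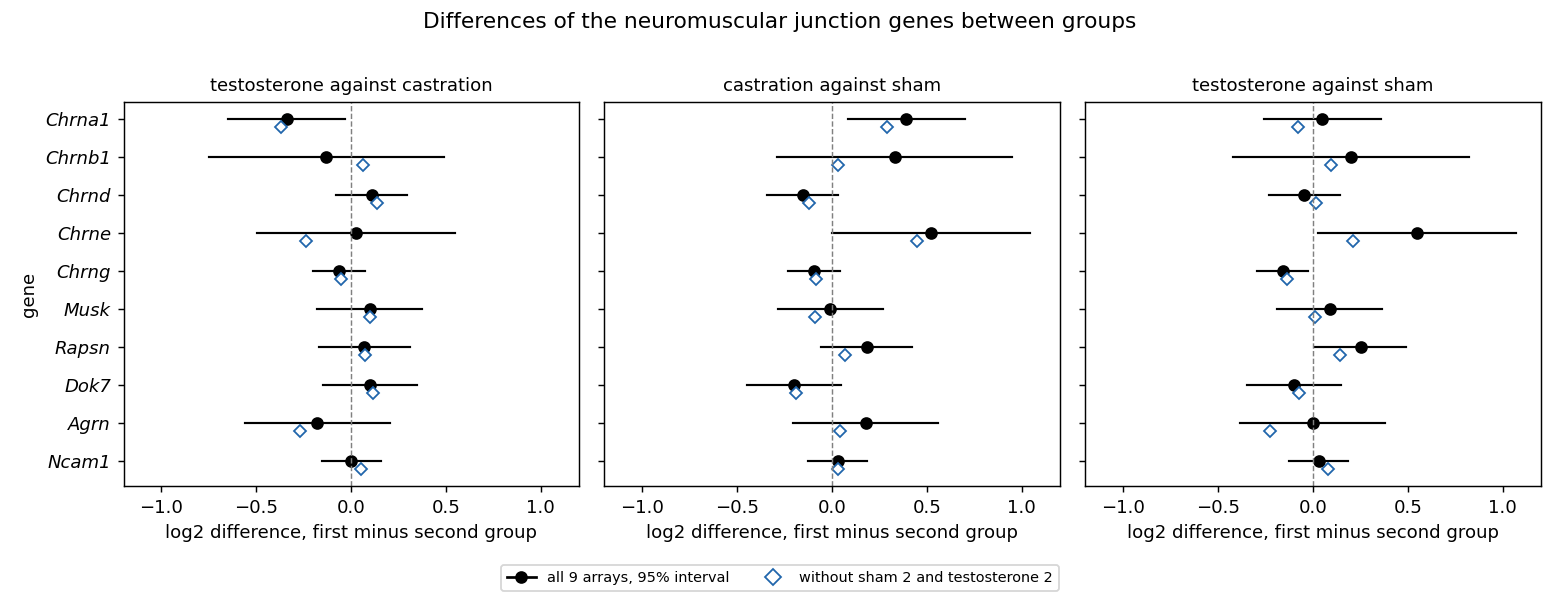
Log2 differences of the 10 genes in testosterone against castration, castration against sham and testosterone against sham muscle, first minus second group, with 95% limma intervals (black) and the values without sham 2 and testosterone 2 (open blue diamonds). For most genes the interval includes 0, and the castration differences of Chrnb1 and Agrn shrink to 0.03 and 0.04 without those arrays.

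No member probe set passed the limma test with Benjamini-Hochberg adjustment over all 45037 probe sets: 0 of 20 in each comparison, where 0% of all probe sets passed as well. At an unadjusted p under 0.05, 1 of 20 was called in testosterone against castration (Chrna1, lower), where 3.02% of all probe sets were. In castration against sham 1 of 20 was called (Chrna1, higher), with 4.19% of all. In testosterone against sham 4 of 20 were called, with 4.75% of all: Chrne and Rapsn higher, and 2 probe sets of Chrng lower. None of those 4 was called without sham 2 and testosterone 2, where 3.23% of all were. In that setting Chrna1 alone was called in testosterone against castration and Chrne alone in castration against sham, with 4.55% of all probe sets in either comparison.

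Arrays of the groups did not overlap for 2 of 20 probe sets in testosterone against castration (7.94% of all), for 2 in castration against sham (7.97% of all) and for 3 in testosterone against sham (6.82% of all). Over the 10 genes the median log2 difference was 0.01 in testosterone against castration, 0.10 in castration against sham and 0.04 in testosterone against sham, beside −0.01, 0.01 and 0.01 over all genes. The 3 medians were 0.06, 0.03 and 0.02 without sham 2 and testosterone 2. A difference above 0 was found for 6 of the 10 genes in each comparison, beside 48.3%, 52.9% and 52.1% of all genes in the same order.

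Genes known to answer to denervation were then set beside the members. Of 22 such genes that are known to gain expression, 21 were measured, 5 of them members (Chrna1, Chrnd, Chrng, Musk and Ncam1). In castration against sham, 9 of the 16 other genes were higher and 7 lower (median log2 0.08, and −0.04 without sham 2 and testosterone 2), against 52.9% higher over all genes. At an unadjusted p under 0.05, 4 of the 16 were higher and 2 lower, where 3.32% and 2% of all genes were. These counts were also 4 and 2 without sham 2 and testosterone 2, where 4.55% of all probe sets were called in either direction. They were not over the same genes. Cdkn1a, a cell cycle inhibitor, and Sln, a calcium pump regulator, were called there (log2 0.66 and −1.54), and Peg3 and Runx1 were not. The mean deviation of all 21 genes from their means over the arrays ran from −0.06 to −0.0020 on the testosterone arrays, from 0.08 to 0.18 on the castration arrays and from −0.22 to −0.0051 on the sham arrays. All 3 castration arrays lay above the rest in this mean, to which Actc1 and Myog contribute the largest castration minus sham differences upward, while the median over genes was near 0. No gene of the list passed after adjustment, in any comparison, with all arrays or without those 2. The list was drawn up with earlier results of these data known, and Myog, Actc1 and Gadd45a had been named in them. The counts and the mean deviation of the list are therefore no independent test of a denervation pattern.

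The 4 higher genes were Myog, Actc1, Gadd45a and Peg3. Myog, which encodes myogenin, was at 4.49, 4.97 and 4.40 with testosterone, 5.93, 5.46 and 5.28 after castration and 4.38, 4.30 and 4.35 in sham. The castration arrays lay wholly above both other groups. Myog was 2.31-fold higher in castration than in sham muscle (log2 1.21, SE 0.19, limma, adjusted p = 0.343) and 1.91-fold lower in testosterone than in castration muscle (log2 −0.93, SE 0.19, limma, adjusted p = 0.582). Without sham 2 and testosterone 2 those differences were 1.19 and −1.11.

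The castration arrays of Actc1, the cardiac alpha-actin that developing muscle makes, also lay above all others. It was at 7.90, 6.98 and 7.17 with testosterone, 10.73, 10.02 and 10.30 after castration and 7.37, 8.59 and 8.74 in sham. Actc1 was 4.33-fold higher in castration than in sham (log2 2.11, limma, adjusted p = 0.518) and log2 −3.00 in testosterone against castration (limma, adjusted p = 0.110). Gadd45a, a stress gene induced in denervated muscle, averaged 3.83 ± 0.10 with testosterone, 4.20 ± 0.10 after castration and 3.81 ± 0.10 in sham (SD, n = 3 each), a castration minus sham log2 difference of 0.39 (limma, adjusted p = 0.765). Gadd45a was 1.29-fold lower with testosterone than after castration. Peg3, an imprinted zinc finger gene, was at 4.31, 5.31 and 4.56 after castration and 3.98, 3.75 and 4.19 in sham. The castration arrays of Peg3 lay above the sham arrays, by log2 0.75 on average, and 3 of its 5 probe sets had that sign. Its difference without sham 2 and testosterone 2 was 0.64, no longer below an unadjusted p of 0.05.

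Other genes that denervation is known to induce went in either direction. Of the 16 listed genes that are not members, 9 had higher means after castration than in sham and 7 lower, and only a part is named here. Runx1, a transcription factor strongly induced by denervation, averaged 4.57 ± 0.13 after castration and 4.81 ± 0.11 in sham (log2 −0.24, limma, adjusted p = 0.883), with that sign on 4 of its 6 probe sets. Without sham 2 and testosterone 2 the Runx1 difference was −0.19, also no longer below an unadjusted p of 0.05. Gdf5, a BMP ligand induced by denervation, was dim and differed by −0.31. The atrophy ubiquitin ligases Fbxo32 and Trim63 had slightly lower means after castration than in sham, at log2 −0.16 (SE 0.15) and −0.11 (SE 0.10). They were higher with testosterone than after castration, by 0.71 and 0.29. The embryonic myosin Myh3 differed by −0.12 between castration and sham and the perinatal Myh8 by 0.12. Myod1, a relative of myogenin, differed by 0.04 (SE 0.29). Dach2 and Hdac9, repressors known to be lower in denervated muscle, differed by −0.03 and 0.14, both dim.

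**Figure D4:**
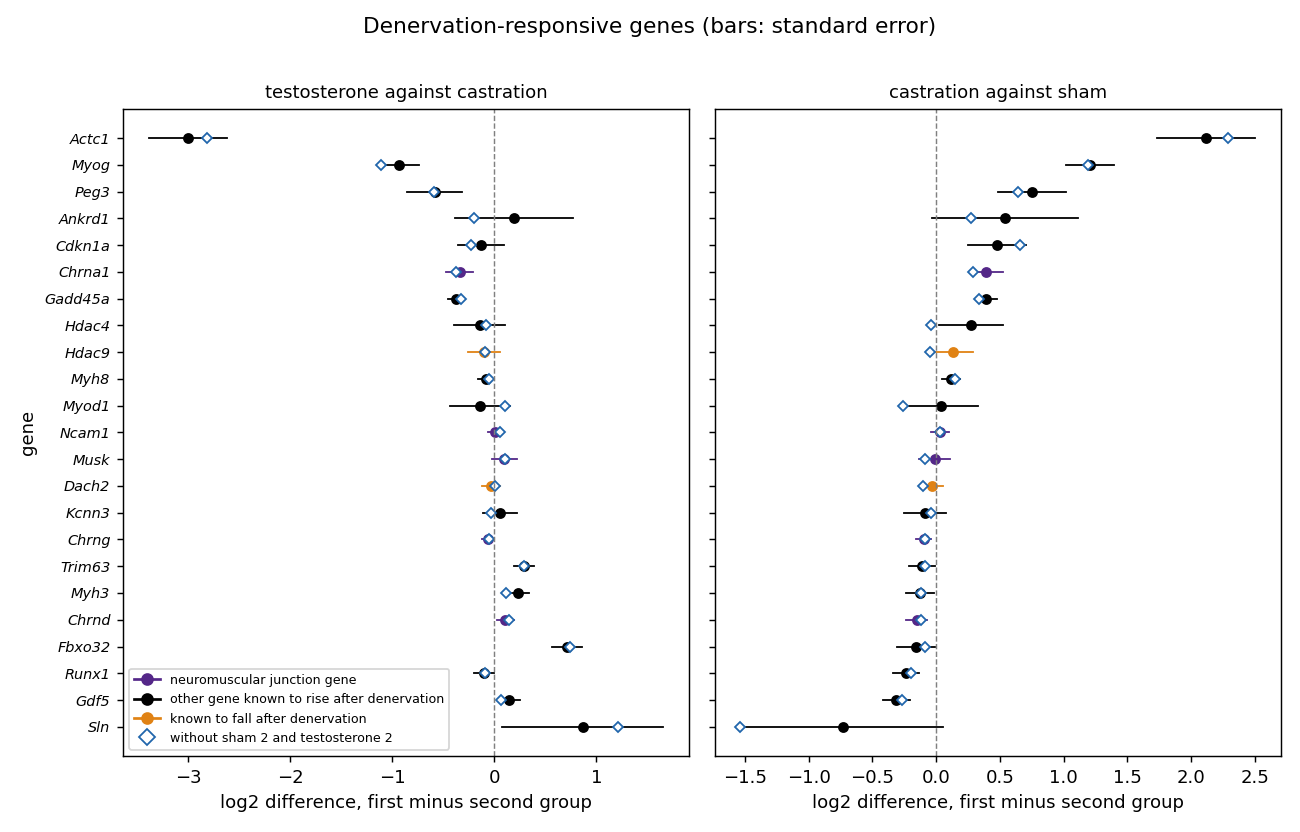
Log2 differences of 23 denervation-responsive genes in testosterone against castration (left) and castration against sham (right), first minus second group, with standard errors. Neuromuscular junction genes are purple, other genes known to gain expression black, genes known to lose it orange, and open diamonds leave out sham 2 and testosterone 2. The horizontal scales of the panels differ. Actc1 and Myog stand furthest to the right in castration against sham, at 2.11 and 1.21. Of the neuromuscular junction genes, Chrna1 lies at 0.39, and Chrnd, Chrng, Musk and Ncam1 lie between −0.15 and 0.03.

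Further genes of the synapse were read from a list of 35, of which 32 were measured. None passed after adjustment in any comparison. In castration against sham 24 were higher and 8 lower (median log2 0.07, and 0.02 without sham 2 and testosterone 2), with 2 higher and 1 lower at an unadjusted p under 0.05. Over all genes 52.9% were higher, and 3.32% and 2% were called higher and lower. The mean deviation of the list was −0.25 on sham 2, 0.02 on sham 1 and 0.04 on sham 3. The part of sham 2 in the count of 24 was not tested. Without sham 2 and testosterone 2, there were 3 called higher and 2 lower. In testosterone against castration 12 were higher and 20 lower (median −0.08, and −0.03 without those arrays), with 1 higher and 2 lower at that threshold, where 1.89% and 2.06% of all genes were, and 3 higher and 6 lower without those arrays. In testosterone against sham 21 were higher and 11 lower (median 0.02). At that threshold 2 were higher and 0 lower, where 2.96% and 2.09% of all genes were, and 2 higher and 1 lower without those arrays. Without those arrays, 4.55% of all probe sets were called in either direction in castration against sham. That share was 4.55% in testosterone against castration and 3.23% in testosterone against sham. Lrp4, the agrin receptor, was at 3.06 to 3.23 on the testosterone arrays, at 3.15 on each castration array and at 3.09 to 3.15 on the sham arrays. Ache, the synaptic acetylcholinesterase, differed by 0.07 (SE 0.15) between castration and sham, and Utrn, the junctional relative of dystrophin, by 0.10 (SE 0.23).

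The smallest p-values in that list belonged to Wnt4, Syne1, Lamb2 and Crkl. Wnt4, a Wnt ligand that acts in junction formation, was at 6.86, 7.07 and 6.58 with testosterone, 7.15, 7.45 and 7.40 after castration and 6.34, 6.43 and 6.85 in sham. Its castration arrays lay above all others, 1.74-fold over sham (log2 0.80, SE 0.17, limma, adjusted p = 0.708). Syne1, a nuclear envelope protein that holds nuclei beneath the synapse, showed the opposite pattern, with 8.34, 8.21 and 8.38 in testosterone muscle, 7.60, 7.49 and 7.29 in castration muscle and 8.44, 7.64 and 8.06 in sham muscle. Syne1 was 1.81-fold higher with testosterone than after castration (log2 0.85, SE 0.18, limma, adjusted p = 0.655), and all 3 of its probe sets had that sign. Lamb2, the synaptic laminin beta chain, was higher in castration than in sham by 0.47 (SE 0.12) and lower with testosterone than after castration by log2 −0.40 (SE 0.12). Crkl, an adaptor that binds Dok7, was higher with testosterone than in sham by 0.61, on 1 of its 4 probe sets, and by 0.10 without sham 2 and testosterone 2.

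A list of 11 myogenic factors, their partners and their inhibitors was read next. Because it mixes factors that bind the E-box with inhibitors, its counts have no single direction. In castration against sham 8 were higher and 3 lower (median 0.04, and 0.02 without sham 2 and testosterone 2), beside 52.9% higher over all genes. With all 9 arrays Myog alone was called at an unadjusted p under 0.05, where 3.32% of all genes were called higher. Without those arrays Myf6, the most abundant myogenic factor of adult muscle, was also called, lower by log2 −0.36. Tcf12, an E protein partner of myogenin, differed by 0.51 (SE 0.28), Id3, an inhibitor of E-box binding, by 0.40 (SE 0.25) and Id1, of the same family, by 0.25 (SE 0.19). Tcf12, Id3 and Id1 differed by 0.19, 0.07 and 0.07 without sham 2 and testosterone 2.

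Markers of other cells also differed between arrays. The mean deviation of 8 fibroblast and matrix markers ran from −0.53 to −0.09 on the testosterone arrays, from 0.21 to 0.50 on the castration arrays and from −0.60 to 0.25 on the sham arrays, so its castration arrays lay highest on average, as did those of Chrna1. In castration against sham 7 of these 8 markers were higher (median 0.34, and 0.04 without sham 2 and testosterone 2), and in testosterone against castration 7 of 8 were lower (median −0.62, and −0.65 without those arrays), 6 of them at an unadjusted p under 0.05. Their part in the Chrna1 differences was not tested. Endothelial markers ran from −0.21 to 0.07, from 0.07 to 0.41 and from −0.40 to 0.01 in the same order of groups, and 8 of 8 were higher in castration than in sham (median 0.39, and 0.23 without sham 2 and testosterone 2), 2 of them at an unadjusted p under 0.05 with all arrays and 0 without those. Adipocyte markers ran from −0.46 to 1.01 with testosterone, from −0.67 to −0.51 after castration and from −0.29 to 0.84 in sham. Macrophage and lymphocyte markers stood out on testosterone 2, at 1.26, where Chrne was also highest. They were next highest on sham 2, at 0.43, where Chrne was lowest. Their part in the Chrne values was not tested. Of 17 Schwann cell and nerve markers 14 were measured, with 5 higher and 9 lower in castration against sham (median −0.05). Chat and Slc18a3, which encode proteins of the motor terminal, averaged 3.03 and 2.87 after castration and 3.19 and 3.09 in sham. These values are at or below the array medians, and such RNA values from muscle are no measure of the motor terminal. Of 6 satellite cell markers 4 were higher and 2 lower (median 0.03), and the defining marker Pax7 was at 3.03 after castration and 2.99 in sham.

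Across the 9 arrays the genes whose level ran most like that of Chrna1, among 4048 genes with a mean above log2 6, were Msn (Pearson r = 0.94), Bgn (0.92), Smdt1 (0.91), Mn1 (0.91) and Ppp1r11 (0.90). Without sham 2 and testosterone 2, over 7 arrays, r was 0.995 for Msn and 0.87 to 0.92 for the others. Spearman's rho over the 9 arrays was 0.75 to 0.98. The arrays share the group differences and the shifts of sham 2, so these values are a description.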

How the data were processed

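Each probe set has a deposited log2 value. The authors used RMA, according to the submitters' processing notes, with no version stated there. RMA normalises all arrays together, but the medians of the deposited arrays still differ. Per the labels, each array held equal amounts of 4 µg total RNA from 3 animals. The values were used as deposited. Of the probe sets tested, 34945 are listed to 1 gene, 932 to several and 9160 to none. Genes were assigned through the platform annotation, with symbols updated by gene identifier against RefSeq GRCm38.p6. Of 45101 probe sets 64 controls were left out, which left 45037. A gene is represented by the probe set, listed to it alone, with the highest mean over all arrays.

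limma 3.58.1 in R 4.3.3 (lmFit, eBayes) was fitted to all 9 arrays with group as the only term, after the one-way analysis named in the design text. Each test was two-sided, with Benjamini-Hochberg adjustment across 45037 probe sets. Unadjusted p-values come from the same fit. Intervals are 95% limma intervals. The fit was tested on simulated data. The spread behind each p-value is that between pools, not between animals.

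The members and lists were chosen with earlier results of these data known. All members were named, and from each list up to 4 genes with the smallest p, with Myog, Actc1 and Gadd45a throughout. The other genes named were chosen after their values were seen, for their known roles. The alternatives are given below under how results depend on the processing.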

Additional observations from a re-analysis of the deposited data

How the results depend on the processing

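Under the other settings no member probe set passed an adjusted p of 0.05 in any comparison. Counts at an unadjusted p under 0.05 moved by 1 to 4 probe sets, and the cause was not tested. In testosterone against castration the count of 1 became 0 with a replicate block, without dim probe sets, with an intensity trend and in the one-way ANOVA without moderation, and lay between 0 and 1 leaving out 1 array. A further setting left out multi-transcript probe sets, those whose suffix marks a match to more than 1 transcript. In castration against sham the count of 1 became 2 with only the groups compared, with gene means, without multi-transcript probe sets, with median centring and in the ANOVA. It became 3 with array weights, and 0 after renewed quantile normalisation or with a trend. Leaving out 1 array gave 0 to 3, with 0 without sham 2 or castration 2. In testosterone against sham the count of 4 became 1 with a replicate block, only the groups compared, no dim probe sets or quantile normalisation. It became 2 without multi-transcript probe sets, with a trend, in the ANOVA or with array weights, and 0 without sham 2 and testosterone 2. Leaving out 1 array gave 1 to 5.

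Signs of small differences turned. In testosterone against castration Ncam1 became −0.0074 with gene means, Chrne −0.057 with array weights, and without sham 2 and testosterone 2 Chrnb1 became 0.062 and Chrne −0.24. Leaving out 1 array gave −0.28 to 0.062 for Chrnb1, −0.24 to 0.26 for Chrne and −0.048 to 0.050 for Ncam1. In castration against sham Agrn became −0.047 with gene means, Rapsn −0.0060 after quantile normalisation and Musk 0.022 with median centring, and Musk ran from −0.087 to 0.14 leaving out 1 array. In testosterone against sham Chrna1 became −0.15 after quantile normalisation, −0.081 with array weights and −0.081 without sham 2 and testosterone 2. Agrn became 0.033 with median centring, Musk −0.084 with array weights and Chrnd 0.018 without those arrays. Leaving out 1 array gave −0.14 to 0.16 for Agrn, −0.050 to 0.14 for Chrna1, −0.10 to 0.39 for Chrnb1 and −0.018 to 0.080 for Ncam1.

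After quantile normalisation the castration difference of Chrna1 was 0.19, not below an unadjusted p of 0.05. It stayed above 0 in every setting run. Deviations of arrays with the same replicate number correlated between −0.47 and 0.31, so the numbers do not pair the arrays. Dok7, Rapsn and Ncam1 have no value of the same probe set without multi-transcript probe sets, nor do Agrn, Chrnd, Chrng, Musk and Ncam1 without dim ones.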

Other observations

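Nicotinic subunits of neurons were read as well, from 11 genes of which 10 were measured. Their mean log2 level was 3.07 to 3.13 on the testosterone arrays, 3.10 to 3.27 on the castration arrays and 3.12 to 3.31 on the sham arrays, near the array medians of 3.15 to 3.26. Chrna2, a neuronal alpha subunit, averaged 2.99 ± 0.12 with testosterone, 3.2 ± 0.08 after castration and 3.21 ± 0.03 in sham (SD, n = 3 each), and its testosterone minus sham difference was −0.22 (limma, adjusted p = 0.797). None of these genes passed the limma test after adjustment. Of the satellite cell markers Itga7, an integrin of the muscle fibre and its junctions as well, averaged 7.72 ± 0.19 with testosterone, 7.40 ± 0.08 after castration and 7.61 ± 0.05 in sham, and all 3 castration arrays lay below both other groups (testosterone minus castration log2 0.32, limma, adjusted p = 0.9999).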
